A study of Homo sapiens with 22 samples.

Results

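THP-1 cells kept in 1 µM BRM014 for 72 h were compared directly with THP-1 cells kept in it for 24 h. The comparison holds 4 RNA-seq libraries of 22 in the series: 2 at 72 h and 2 at 24 h, chosen by their sample titles. The spread was estimated over all 22, which also include THP-1 cells given 0.01 µM PMA for 48 h or 3 µM DB2313 for 72 h (2 libraries each); neither treatment is compared here. THP-1 is a human acute myeloid leukaemia line of monocytic character with a KMT2A fusion, listed without any added genetic change, and grown in medium with serum. The THP-1 DMSO group (solvent alone, 2 libraries) is given beside both as the untreated level, and MOLM-13 and MV-4-11, other leukaemia lines with KMT2A fusions, had the same times of BRM014 in 2 libraries each. No group is labelled 72 h DMSO or 24 h DMSO, so the length of BRM014 exposure and time in culture cannot be told apart. Nothing in the labels says that the libraries of a group came from separate cultures. A p-value here sets the change against the spread between libraries of a group, estimated over all 22, and that spread can be technical. Each file lists 28063 gene symbols, and 16794 passed the filter on low counts and were tested.

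BRM014 inhibits SMARCA4 and SMARCA2, the ATPases that drive the SWI/SNF remodelling complexes. These complexes use ATP to slide or evict nucleosomes and keep enhancers and promoters open, so that transcription factors such as PU.1 (gene SPI1), the master factor of monocytes and macrophages, can stay bound. Myeloid leukaemia cells depend on SMARCA4 for the expression of MYC and other growth genes, and loss of that support is known to slow their division and to move them towards more mature monocytic states. The comparison of the 72 h with the 24 h libraries addresses what changes after the first day of inhibition.

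The 4 libraries held 18092647 and 16310590 reads in genes at 72 h, against 19129613 and 21565666 at 24 h. The libraries of a group correlated across genes at r = 0.986 at 72 h and 0.988 at 24 h (log2 CPM, the counts per gene scaled to a common library size with TMM factors), and their counts differed by more than counting error (chi-square over its degrees of freedom 5.16 at 72 h and 4.33 at 24 h). Reads outside annotated genes made up 19.2% and 18.8% at 72 h, against 18.4% and 18.9% at 24 h. The targeted ATPase genes were still transcribed: SMARCA4 had 206 and 223 CPM at 72 h, against 246 and 256 CPM at 24 h, and SMARCA2 had 262 and 262 CPM at 72 h, against 263 and 268 CPM at 24 h. BRM014 acts on the proteins, so these levels do not check the treatment. Markers of the monocyte lineage were present in all 4 libraries but did not move together. CD68 (0.34 ± 0.065) and ITGB2 (0.42 ± 0.080) rose, while LYZ (-1.32 ± 0.070), FCER1G (-1.26 ± 0.13), PTPRC (-0.66 ± 0.13), SPI1 (-0.77 ± 0.12) and CTSG (-0.78 ± 0.18) fell (log2 fold changes ± standard error). TYROBP, an adaptor of myeloid receptors, had 67.5 and 70.2 CPM at 72 h, against 72.4 and 67.4 CPM at 24 h. Of the markers of tissue macrophages, MRC1, C1QB and C1QC had no read in any of the 4 libraries, and CD163, MSR1, MARCO, C1QA and VSIG4 were under 1 CPM in all 4. In the same set APOE had 223 and 257 CPM at 72 h, against 27.01 and 28.4 CPM at 24 h, and GPNMB had 6.45 and 6.43 CPM at 72 h, against 12.8 and 10.1 CPM at 24 h. Of 21 erythroid and megakaryocyte markers, 12, among them all the globins listed, had no read in any of the 4 libraries, and the list summed to 58.9 and 63.02 CPM at 72 h, against 36.8 and 41.7 CPM at 24 h. Of 20 lymphoid markers, 13 were under 1 CPM in all 4 libraries, and the list summed to 172 and 174 CPM at 72 h, against 212 and 204 CPM at 24 h; the part of either list in the results was not tested. CD4, which monocytes also express, made up most of that sum, with 159 and 158 CPM at 72 h, against 198 and 190.2 CPM at 24 h. In bulk RNA, fewer cells of a kind and less RNA per cell cannot be told apart, here or in any value below.

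Between 24 h and 72 h, 2724 genes (16.2% of those tested) rose and 2766 (16.5%) fell at an edgeR adjusted p under 0.05. These shares are the background for every count of list members that rose or fell below, and a count near them sets no list apart. The changes were mostly small: 779 genes (4.64%) rose and 456 (2.72%) fell at least 2-fold, and the median log2 fold change over all 16794 genes was 0.0086, with quartiles of -0.31 and 0.40. An 8-fold or larger change was called for 89 genes that rose and 65 that fell. CPM did not overlap between the groups in 11358 genes (67.6%), which is the background for every such statement here. Without 24 h replicate 1 the number of genes that rose was 1734. Below, values with ± are log2 fold changes of 72 h over 24 h with their standard error (n = 2 libraries each), and paired CPM are replicates 1 and 2. Large named rises included the complement gene C3, collagen genes and lipid-transport genes. Large named falls were in immediate early genes, among them JUN and members of the EGR family.

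**Figure D1:**
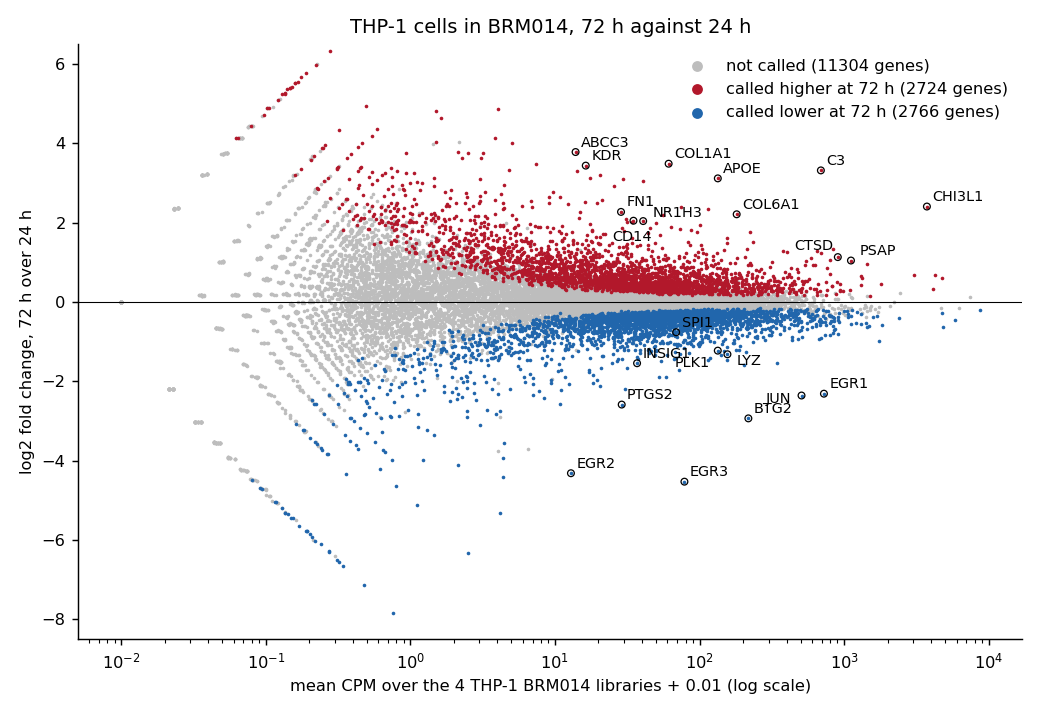
Log2 fold change of 72 h over 24 h of BRM014 (y axis) against mean CPM over the 4 THP-1 libraries (x axis, log scale), 1 point for each of 16794 genes; red points rose (2724), blue points fell (2766) and grey points were not called. Ringed genes are named in the text: C3, COL1A1 and CHI3L1 stand far above 0, and EGR3, EGR2, BTG2 and JUN far below it.

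The 12 largest rises among genes with at least 5 CPM and no overlap between groups mixed secreted, surface and intracellular proteins. C3, the central component of complement (chr19:6677704-6730562, minus strand), had 1182 and 1329 CPM at 72 h, against 124 and 128 CPM at 24 h (log2 fold change of 3.31 ± 0.096; edgeR adjusted p = 1.04e-14). The libraries of each time were close to each other, and the DMSO libraries, at 95.4 and 90.8 CPM, were slightly below those of 24 h. COL1A1, a chain of type I collagen (chr17:50183289-50201632, minus strand), had 109 and 116 CPM at 72 h, against 10.4 and 9.69 CPM at 24 h (log2 fold change of 3.48 ± 0.26), and 0.501 and 0.7496 CPM in DMSO. KDR, a receptor for vascular endothelial growth factor, had 31.6 and 28.1 CPM at 72 h, against 2.97 and 2.56 CPM at 24 h (log2 fold change of 3.43 ± 0.28). ABCC3, an export pump for organic anions, had 25.5 and 26.2 CPM at 72 h, against 1.64 and 2.11 CPM at 24 h (log2 fold change of 3.78 ± 0.23). In all 4 of these genes the 72 h libraries lay far above the 24 h libraries with little spread in either group. EPHB3, an ephrin receptor, had 35.7 and 37.7 CPM at 72 h, against 4.81 and 3.23 CPM at 24 h (3.20 ± 0.22). COL5A3, a chain of type V collagen, had 6.03 and 5.797 CPM at 72 h, against 0.4604 and 0.404 CPM at 24 h (3.76 ± 0.73). EPHB3 started from a few CPM at 24 h, and COL5A3 from under 1 CPM. CDH1, the epithelial cadherin, had 33.8 and 28.6 CPM at 72 h, against 3.68 and 3.4999 CPM at 24 h (3.12 ± 0.46); DESeq2's Wald test did not call it (adjusted p = 0.767). CHST2, a sulfotransferase, had 4.51 and 6.899 CPM at 72 h, against 0.4604 and 0.449 CPM at 24 h (3.63 ± 0.28), and 72 h stood close to the 5.26 and 5.45 CPM in DMSO. PRSS23, a secreted serine protease whose exons overlap FZD4 on the other strand, had 6.61 and 10.9 CPM at 72 h, against 1.13 and 0.628 CPM at 24 h (3.32 ± 0.57). The remaining 3 depended on single libraries. ALOX5, the 5-lipoxygenase of leukotriene synthesis, had 3.78 and 10.7 CPM at 72 h, against 0.256 and 0.538 CPM at 24 h (4.13 ± 1.15), and its call was lost without 72 h replicate 2 (adjusted p = 0.0890), 24 h replicate 1 (0.0854) or 24 h replicate 2 (0.0526). DNAJA3, a mitochondrial co-chaperone, had 6.295 and 12.6 CPM at 72 h, against 0.665 and 0.494 CPM at 24 h (4.02 ± 1.27), but 15.8 and 1.099 CPM in DMSO, and its call was lost without any 1 of 72 h replicate 2, 24 h replicate 1 and 24 h replicate 2 (adjusted p = 0.103, 0.0924 and 0.117). PRPF8, a core protein of the spliceosome, had 26.2 and 25.3 CPM at 72 h, against 1.69 and 3.4999 CPM at 24 h (3.29 ± 0.82); it was 2.88 at an adjusted p of 0.0537 without 24 h replicate 1 and 3.92 without 24 h replicate 2.

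Among the 12 largest falls were 3 of the EGR transcription factors, described with the immediate early genes below. BTG2, an anti-proliferative gene that p53 and growth signals induce (chr1:203305491-203309602, plus strand), had 15.7 and 14.7 CPM in DMSO, 397 and 374 CPM at 24 h and 60.1 and 40.3 CPM at 72 h (log2 fold change of -2.94 ± 0.16; edgeR adjusted p = 7.34e-11). PTGS2, the inducible cyclooxygenase of prostaglandin synthesis, had 2.57 and 2.099 CPM in DMSO, 50.7 and 48.6 CPM at 24 h and 9.44 and 7.01 CPM at 72 h (log2 fold change of -2.59 ± 0.20). Both genes peaked at 24 h and remained above DMSO at 72 h. CEACAM6, a granulocyte adhesion molecule, had 35.9 and 29.7 CPM in DMSO, 6.804 and 6.91 CPM at 24 h and 0.6295 and 1.33 CPM at 72 h (log2 fold change of -2.82 ± 0.30, and -3.43 without 72 h replicate 2). HLA-DQB1, a chain of an MHC class II molecule with near-identical relatives, had 11.1 and 10.3 CPM in DMSO, 5.73 and 5.97 CPM at 24 h and 0.682 and 1.101 CPM at 72 h (log2 fold change of -2.71 ± 0.45). CEACAM6 was already lower at 24 h than in DMSO; for HLA-DQB1 that earlier difference did not pass the test (edgeR adjusted p = 0.0627). CWC25, a splicing factor, had 0.577 and 0.812 CPM at 72 h, against 10.8 and 5.56 CPM at 24 h (log2 fold change of -3.55 ± 0.90), with an adjusted p of 0.0547 without 72 h replicate 1. The other 4 rested on 24 h replicate 1, which stood far above 24 h replicate 2. DDAH2, whose exons overlap CLIC1, had 0 and 0.406 CPM at 72 h, against 15.8 and 0.494 CPM at 24 h (-5.33 ± 1.43), and -1.31 at an adjusted p of 0.620 without 24 h replicate 1; over all settings it was -10.25 to -1.31, the low end without 72 h replicate 2, where the other 72 h library had no read. UBR7, which overlaps GON7, had 0.577 and 0.174 CPM at 72 h, against 15.4 and 1.26 CPM at 24 h (-4.41 ± 1.14), and -1.70 at an adjusted p of 0.351 without that library, with a range over all settings of -5.52 to -1.70. HRAS, a small GTPase of growth signalling, had 0.2098 and 0.8696 CPM at 72 h, against 14.3 and 2.15 CPM at 24 h (-3.93 ± 1.23), and -2.01 at an adjusted p of 0.334 without that library, with a range over all settings of -5.24 to -2.01. BFAR, a regulator of apoptosis, had 1.31 and 0.812 CPM at 72 h, against 13.1 and 1.35 CPM at 24 h (-2.74 ± 0.96), and -0.33 at an adjusted p of 0.878 without that library, with a range over all settings of -3.62 to -0.33. The calls did not all survive the loss of a 72 h library either: DDAH2 had an adjusted p of 0.0841 and HRAS of 0.150 without 72 h replicate 1, UBR7 had 0.0636 and HRAS 0.0552 without 72 h replicate 2, and BFAR had 0.110 without 72 h replicate 1 and 0.175 without 72 h replicate 2.

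**Figure D2:**
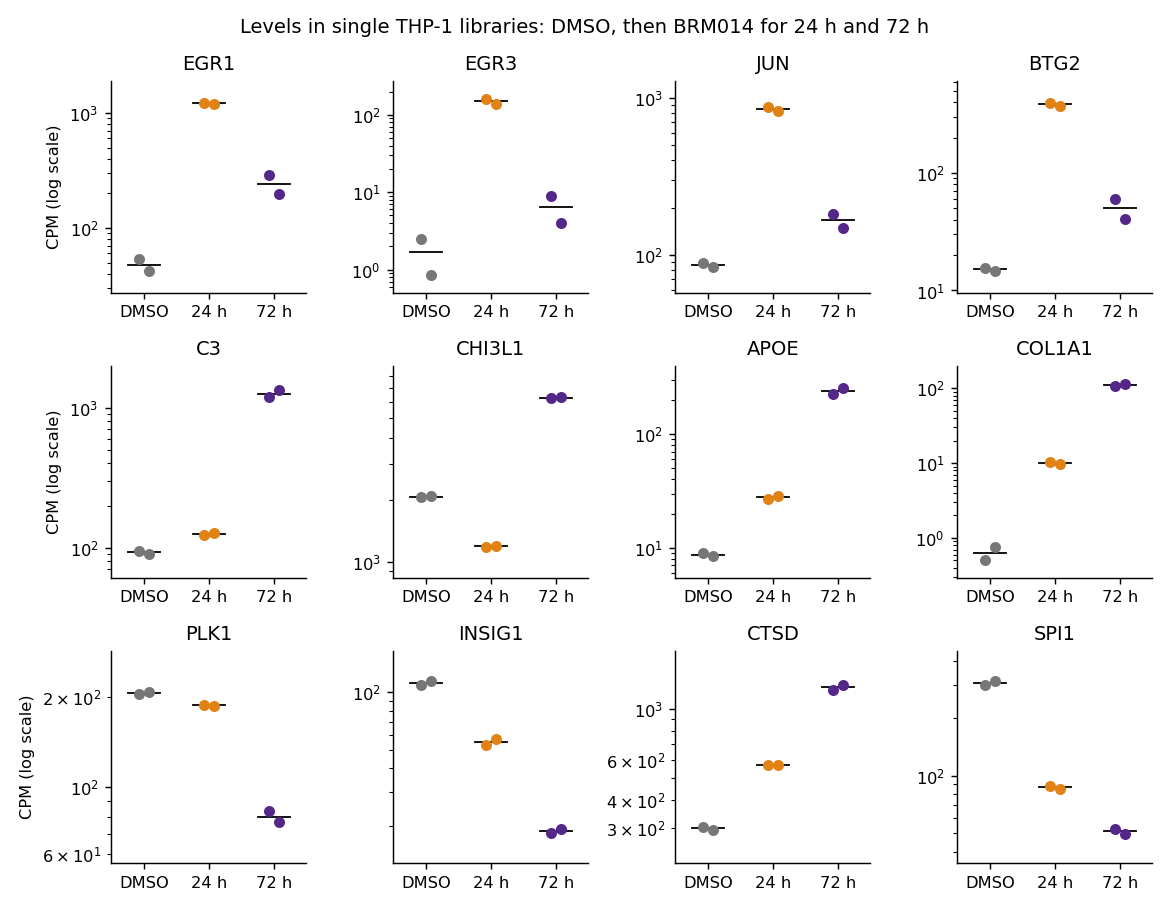
CPM (log scale) of 12 genes in single THP-1 libraries (points) with the mean of each group (bars), in DMSO and after 24 h and 72 h of BRM014. EGR1, EGR3, JUN and BTG2 peaked at 24 h, C3, APOE, COL1A1 and CTSD were highest at 72 h, CHI3L1 was lowest at 24 h, and PLK1, INSIG1 and SPI1 were lowest at 72 h.

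Immediate early genes are switched on within minutes of signalling through ERK kinases and encode transcription factors and their feedback inhibitors. In the list of 27 such genes, all tested, 18 fell and 3 rose, with a median log2 fold change of -0.84 against 0.0086 over all genes. EGR1 (chr5:138465490-138469315, plus strand), a zinc-finger factor, had 54.04 and 42.1 CPM in DMSO, 1229.7 and 1186 CPM at 24 h and 289 and 196 CPM at 72 h (log2 fold change of -2.31 ± 0.15; edgeR adjusted p = 9.82e-10). EGR3 had 2.505 and 0.8496 CPM in DMSO, 162 and 139 CPM at 24 h and 8.92 and 4.0001 CPM at 72 h (-4.53 ± 0.29, and -5.23 without 72 h replicate 1). EGR2 had 0.689 and 0.1999 CPM in DMSO, 27.01 and 22.1 CPM at 24 h and 1.84 and 0.5797 CPM at 72 h (-4.32 ± 0.49, and -5.39 without 72 h replicate 1). In all 3 the 24 h libraries were the highest, and 72 h replicate 1 stood above 72 h replicate 2. EGR4 had 0.6295 and 0.638 CPM at 72 h, against 6.24 and 4.67 CPM at 24 h (-3.09 ± 0.61). JUN, a subunit of the AP-1 factor, had 88.4 and 83.9 CPM in DMSO, 876 and 824 CPM at 24 h and 183 and 148 CPM at 72 h (log2 fold change of -2.36 ± 0.12; edgeR adjusted p = 6.35e-11). FOS, its partner, had 747 and 571 CPM at 72 h, against 1249.6 and 1047 CPM at 24 h (-0.80 ± 0.13). NR4A1, an orphan nuclear receptor, had 4.88 and 2.899 CPM at 72 h, against 18.5 and 17.8 CPM at 24 h (-2.22 ± 0.30). DUSP1, a phosphatase that switches MAP kinases off, had 48.4 and 35.3 CPM at 72 h, against 114 and 95.6 CPM at 24 h (-1.32 ± 0.14). The exceptions were DUSP4, another such phosphatase, with 160.4 and 158 CPM at 72 h, against 44.04 and 39.4 CPM at 24 h (1.93 ± 0.12), and the Ras-pathway inhibitors SPRED1 and SPRED2. FOS, NR4A1, DUSP1, DUSP4, SPRED1 and SPRED2 were named after their values were seen. Summed over the list, the level was 989.98 and 977 CPM in DMSO, 5692 and 5156 CPM at 24 h and 2667 and 2181 CPM at 72 h. The sum at 72 h was thus under that at 24 h in both libraries and above that in DMSO. The DMSO and 24 h libraries are shared with the comparisons of either time with DMSO, so these levels are a description of a course and not separate evidence.

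Genes of cell adhesion and of the extracellular matrix rose as a group: 18 of 28 tested rose and 1, ITGA4, fell, with a median log2 fold change of 0.62. COL6A1, a chain of type VI collagen (chr21:45981737-46005050, plus strand), had 273 and 321 CPM at 72 h, against 67.2 and 61.4 CPM at 24 h (log2 fold change of 2.21 ± 0.13; edgeR adjusted p = 4.37e-10). FN1, fibronectin, had 48.8 and 45.97 CPM at 72 h, against 11.3 and 8.48 CPM at 24 h (2.27 ± 0.20). MMP2, a gelatinase that cuts collagen, had 84.5 and 100.002 CPM at 72 h, against 19.1 and 21.4 CPM at 24 h (2.19 ± 0.14). ITGB5, an integrin subunit that binds vitronectin, had 21.5 and 28.001 CPM at 72 h, against 4.86 and 5.34 CPM at 24 h (2.27 ± 0.19). The 4 genes rose by about the same factor, and none overlapped between the groups. COL6A2 and the intermediate filament gene VIM, named after their values were seen, had log2 fold changes of 1.62 ± 0.14 and 1.31 ± 0.076. Of 26 genes of the actin cytoskeleton, 10 rose and 6 fell, with a median of 0.059; 10 fell in fits of the 4 libraries alone. VCL, vinculin of focal adhesions, had 124 and 128 CPM at 72 h, against 45.3 and 48.5 CPM at 24 h (1.43 ± 0.095). SYNPO, synaptopodin, had 242 and 253 CPM at 72 h, against 111 and 121 CPM at 24 h (1.09 ± 0.11). S100A10, which links annexin to the membrane skeleton, had a log2 fold change of 1.43 ± 0.11, and PALLD, palladin, of 1.47 ± 0.37, the second with an adjusted p of 0.0679 without 24 h replicate 1. CTTN, cortactin, had 158 and 159 CPM at 72 h, against 134 and 135 CPM at 24 h (0.24 ± 0.095), which did not pass the test (edgeR adjusted p = 0.0642), after 0.564 and 0.5997 CPM in DMSO. Beside these, the summed level of 18 markers of epithelial cells and fibroblasts was 167 and 167 CPM at 72 h, against 42.2 and 40.5 CPM at 24 h. COL1A1 and CDH1 made up most of the 72 h sums, KRT5, KRT14, COL1A2, COL3A1 and LUM had no read in any of the 4 libraries, 14 of the 18 were under 1 CPM in all 4, and the part of other cells in these results was not tested. Of the tetraspanins, membrane organisers of adhesion, 5 of 12 rose and 3 fell, and 3 rose without 72 h replicate 2 and 2 without 24 h replicate 2. CD63, of lysosomes and exosomes, had a log2 fold change of 0.74 ± 0.12, and CD53, of leukocytes, of -1.21 ± 0.13.

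Genes of the nuclear receptors LXR and PPAR, and of lipid transport and metabolism under their control, rose more often than all genes. The share that rose was above the 16.2% of all genes, and the share that fell was near the 16.5%. Of 22 tested, 11 rose and 3 fell, with a median log2 fold change of 0.25; 7 rose without 72 h replicate 1, 72 h replicate 2 or 24 h replicate 1, and 5 fell in fits of 18 libraries or of the 4 alone. APOE, the apolipoprotein that macrophages secrete (chr19:44905754-44909393, plus strand), had 8.95 and 8.396 CPM in DMSO, 27.01 and 28.4 CPM at 24 h and 223 and 257 CPM at 72 h (log2 fold change of 3.11 ± 0.16; edgeR adjusted p = 7.34e-11). ANGPTL4, a secreted inhibitor of lipoprotein lipase that overlaps RAB11B-AS1, had 0.125 and 0.04998 CPM in DMSO, 2.56 and 2.38 CPM at 24 h and 16.9 and 16.9 CPM at 72 h (2.77 ± 0.26). NR1H3, which encodes LXR-alpha itself and overlaps ACP2, had 9.205 and 11.6 CPM in DMSO, 15.4 and 16.5 CPM at 24 h and 67.3 and 63.8 CPM at 72 h (2.04 ± 0.15). Each of these 3 stood above DMSO at 24 h and higher still at 72 h. APOC1, the neighbour of APOE, had a log2 fold change of 1.86 ± 0.23. ABCA1, a cholesterol exporter and a classical LXR target, was among the 3 that fell, with a log2 fold change of -0.63 ± 0.13; it was named after its value was seen. PPARG had 161 and 160.1 CPM at 72 h, against 132 and 139 CPM at 24 h (0.24 ± 0.086; edgeR adjusted p = 0.0362), a call that was lost without any 1 of the 4 libraries (adjusted p = 0.0795 to 0.211).

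Of 22 tested complement genes 7 rose, a share above the 16.2% of all genes. A further 3 fell, a share under the 16.5% of all genes, and the median was 0.025. Besides C3, CR1, the receptor for its cleaved forms, had 16.4 and 16.9 CPM at 72 h, against 5.22 and 6.33 CPM at 24 h (1.52 ± 0.26). CFD, complement factor D, had 27.1 and 22.3 CPM at 72 h, against 7.62 and 10.5 CPM at 24 h (1.44 ± 0.43), with an adjusted p of 0.0877 without 72 h replicate 1 and 0.115 without 24 h replicate 1. ITGAM, the integrin chain of complement receptor CR3, went the other way, with 30.7 and 24.7 CPM in DMSO, 78.1 and 80.5 CPM at 24 h and 28.9 and 27.8 CPM at 72 h (log2 fold change of -1.48 ± 0.094). ITGAM at 72 h was close to its DMSO level.

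Lysosomal genes rose broadly but modestly: 24 of 38 rose and 3 fell, with a median log2 fold change of 0.44. CTSD, an aspartic protease (chr11:1752752-1764573, minus strand), had 304 and 296 CPM in DMSO, 566 and 570.1 CPM at 24 h and 1205 and 1278 CPM at 72 h (log2 fold change of 1.13 ± 0.085; edgeR adjusted p = 7.05e-09). PSAP, the precursor of the saposins that help degrade sphingolipids, had 246 and 243 CPM in DMSO, 728 and 731 CPM at 24 h and 1489 and 1514 CPM at 72 h (1.04 ± 0.060). CTSL, a cysteine protease, had 76.7 and 76.5 CPM in DMSO, 244 and 233 CPM at 24 h and 553 and 591 CPM at 72 h (1.26 ± 0.077). For CTSD, PSAP and CTSL the level rose in the order DMSO, 24 h, 72 h. The share of all genes with that order was not computed, so it is a description of these genes alone. CTSF had 44.5 and 41.2 CPM at 72 h, against 16.4 and 16.3 CPM at 24 h (1.39 ± 0.24). GRN, progranulin, named after its values were seen, had 1867 and 1935 CPM at 72 h, against 984 and 994 CPM at 24 h (0.94 ± 0.068). The summed level of the list was 5240.5 and 5291 CPM in DMSO, 7783 and 7669 CPM at 24 h and 12057 and 12305 CPM at 72 h. Subunits of the proton pump that acidifies lysosomes were mostly not called: 4 of 16 rose and 2 fell, with a median of 0.043, and 1 or 2 rose without 72 h replicate 1, 24 h replicate 1 or 24 h replicate 2. Of all genes 32.7% were called, 16.2% higher and 16.5% lower, so most genes outside the pump were not called either. ATP6V0A1 had a log2 fold change of 0.46 ± 0.068 and ATP6V0B of -0.61 ± 0.098. Of 28 autophagy genes and TFEB relatives, 10 rose and 5 fell; 1 to 3 fell without any 1 library. Of these, MAP1LC3A, a protein of the autophagosome membrane, had 32.2 and 35.2 CPM at 72 h, against 10.6 and 10.1 CPM at 24 h (1.70 ± 0.17). MITF, a relative of TFEB, had 11.7 and 9.22 CPM at 72 h, against 17.1 and 19.3 CPM at 24 h (-0.80 ± 0.18). MAP1LC3A rose and MITF fell. In the autophagy list the share that rose was above the 16.2% of all genes, and the share that fell was near the 16.5%. In iron handling, FTH1, the ferritin heavy chain, had 1550.04 and 1669.8 CPM at 72 h, against 1081 and 961 CPM at 24 h (0.66 ± 0.099), and the list had 5 of 16 higher and 2 lower; 3 were higher without 72 h replicate 1 or 24 h replicate 2. FTL, the light chain, had 2021 and 2097 CPM at 72 h, against 2852 and 2641 CPM at 24 h (-0.42 ± 0.10), so that the chains of ferritin moved in opposite directions. In the iron list the share that rose was above the 16.2% of all genes, and the share that fell was slightly under the 16.5%.

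The E-box letters CACGTG are read by TFEB and other basic helix-loop-helix factors, TFEB being known as an activator of lysosomal genes. In promoter windows of 300 bases (250 before to 50 after the start, RefSeq on GRCh38.p14), 8 of the 25 lysosomal genes found in the table held CACGTG (32.0%), against 7.44% of 27305 promoters and 9.66% of the 12176 promoters of tested genes. Lists that fell held it too: 9 of 25 promoters in ribosome biogenesis (36.0%) and 6 of 24 in mitosis. CTSD is shown because it rose and holds 1 such match in the 200 bases before its start (chr11:1763928-1764127 on the minus strand), with the E-box in capitals.
CTSD: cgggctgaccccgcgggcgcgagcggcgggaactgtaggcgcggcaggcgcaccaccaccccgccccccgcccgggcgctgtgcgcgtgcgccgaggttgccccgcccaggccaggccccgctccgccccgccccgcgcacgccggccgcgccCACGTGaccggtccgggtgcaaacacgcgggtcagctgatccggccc

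Interferon-induced genes rose in part: 13 of 38 rose and 2 fell, with a median of 0.31, and 6 rose without 72 h replicate 2 and 7 without 24 h replicate 2. IFIT2, a sensor of foreign RNA that overlaps LIPA, had 16.8 and 15.9 CPM at 72 h, against 6.45 and 6.33 CPM at 24 h (log2 fold change of 1.35 ± 0.20; edgeR adjusted p = 3.02e-05). IFIT3, its partner, had 12.9 and 12.8 CPM at 72 h, against 7.72 and 5.97 CPM at 24 h (0.91 ± 0.16). IFIT1 had 3.62 and 8.35 CPM at 72 h, against 3.12 and 1.57 CPM at 24 h (1.36 ± 0.37), and without 72 h replicate 2 it was 0.64 at an adjusted p of 0.282, and without 24 h replicate 2 it was 0.93 at an adjusted p of 0.135. OASL had a log2 fold change of 1.04 ± 0.26, with an adjusted p of 0.0508 without 72 h replicate 2 and 0.0520 without 24 h replicate 1. IFIT2 and IFIT3 held in every setting, and IFIT1 and OASL did not. In MHC class I presentation, 5 of 17 rose and 1 fell; up to 4 fell under other settings. B2M, the shared light chain of class I molecules, had 608 and 543 CPM at 72 h, against 379 and 378 CPM at 24 h (0.61 ± 0.093). ERAP1, which trims peptides for them, had 128 and 119 CPM at 72 h, against 82.8 and 83.1 CPM at 24 h (0.57 ± 0.12). HLA-B, whose counts share near-identical copies, had a log2 fold change of 0.51 ± 0.14, lost without 72 h replicate 2 (adjusted p = 0.141) or 24 h replicate 2 (0.131). PSMB8, which overlaps PSMB9, had 2.31 and 0.812 CPM at 72 h, against 5.22 and 6.87 CPM at 24 h (-1.93 ± 0.46, with -2.89 without 72 h replicate 1 and -1.39 at an adjusted p of 0.0595 without 72 h replicate 2).

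Genes of cell division fell together. All 30 tested genes of mitosis fell, with a median log2 fold change of -1.01 and a range of -1.23 to -0.36, and 33 of 34 genes of DNA replication fell, with a median of -0.56. PLK1, a kinase that drives entry into and passage through mitosis (chr16:23677656-23690367, plus strand, overlapping ERN2), had 205 and 207 CPM in DMSO, 189 and 186 CPM at 24 h and 83.3 and 76.6 CPM at 72 h (log2 fold change of -1.23 ± 0.074; edgeR adjusted p = 4.33e-10). BUB1, of the spindle checkpoint, had 202 and 199.9 CPM in DMSO, 211 and 204 CPM at 24 h and 89.2 and 87.6 CPM at 72 h (-1.23 ± 0.067). NDC80, which holds microtubules at the kinetochore, had 69.1 and 78.5 CPM in DMSO, 109 and 108 CPM at 24 h and 51.99 and 44.4 CPM at 72 h (-1.17 ± 0.094). At 24 h PLK1 and BUB1 were near their DMSO levels and NDC80 above it, and at 72 h PLK1, BUB1 and NDC80 were all below them. UBE2C, which marks mitotic proteins for destruction, had 31.4 and 30.6 CPM at 72 h, against 65.6 and 67.9 CPM at 24 h (-1.11 ± 0.10). Summed over the mitosis list, the level was 5985 and 6074 CPM in DMSO, 6325 and 6203 CPM at 24 h and 3343 and 3286 CPM at 72 h. Summed over the replication list, it was 5792 and 5873 CPM in DMSO, 3545 and 3559 CPM at 24 h and 2388 and 2452 CPM at 72 h, so that this list was lower in each step. ORC1, a subunit of the origin recognition complex, had 119 and 120.04 CPM in DMSO, 50.4 and 52.005 CPM at 24 h and 28.96 and 26.7 CPM at 72 h (-0.88 ± 0.093). CDT1, which loads the replicative helicase (chr16:88803213-88809258, plus strand), had 126 and 133 CPM in DMSO, 75.9 and 85.03 CPM at 24 h and 43.1 and 47.7 CPM at 72 h (-0.83 ± 0.097). GINS3, of that helicase, had a log2 fold change of -0.94 ± 0.13, and TYMS, the thymidylate synthase that overlaps ENOSF1, of -0.82 ± 0.12. Of 23 G1 cyclins and CDK inhibitors, 10 fell and 2 rose; 6 fell without 24 h replicate 2, and 4 rose in the fit of the 4 libraries alone. The 2 that rose were CCND1, cyclin D1, with 4.38 and 3.75 CPM in DMSO, 21.8 and 19.2 CPM at 24 h and 66.2 and 70.1 CPM at 72 h (1.73 ± 0.12). CDKN1A, the CDK inhibitor p21, with 24.6 and 22.99 CPM in DMSO, 249.8 and 251 CPM at 24 h and 384 and 406 CPM at 72 h (0.66 ± 0.078). CCND3, the cyclin D of blood cells, had 149 and 161 CPM at 72 h, against 230.2 and 232 CPM at 24 h (-0.58 ± 0.078). CDKN2D, a CDK4 inhibitor, had 7.08 and 7.65 CPM at 72 h, against 17.2 and 15.8 CPM at 24 h (-1.16 ± 0.16).

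Promoters of these lists are known for short motifs: the cell cycle homology region (CHR, searched as TTTGAA) and CCAAT boxes bound by NF-Y in genes of mitosis, and E2F sites (searched as TTCCCGC or TTGGCGC) in genes of replication, each on both strands, with overlapping matches of different motifs all counted. Of 24 mitosis promoters in the table, 17 held TTTGAA (70.8%, against 15.4% of all 27305 and 10.5% of those of tested genes), and 79.2% held CCAAT (35.7% of all). Of 30 replication promoters, 20 held an E2F match (66.7%, against 9.33% of all and 13.96% of those of tested genes). A match describes the letters of a window and shows no binding. PLK1 and CDT1 are shown as a fallen member of each list that holds the motifs. The 200 bases before the start of PLK1 are chr16:23678689-23678888 on the plus strand, with NF-Y and CHR matches in capitals, and those of CDT1 are chr16:88803589-88803788 on the plus strand, with E2F matches in capitals.
PLK1: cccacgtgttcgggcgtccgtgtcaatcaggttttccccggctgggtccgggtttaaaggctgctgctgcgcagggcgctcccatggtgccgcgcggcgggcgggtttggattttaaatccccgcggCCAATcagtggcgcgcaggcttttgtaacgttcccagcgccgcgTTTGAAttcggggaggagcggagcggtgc
CDT1: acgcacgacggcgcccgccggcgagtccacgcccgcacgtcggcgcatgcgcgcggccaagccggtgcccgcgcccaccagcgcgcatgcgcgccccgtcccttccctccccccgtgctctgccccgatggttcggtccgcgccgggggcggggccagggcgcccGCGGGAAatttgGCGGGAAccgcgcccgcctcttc

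Targets of p53 were split: 6 of 26 rose and 10 fell, with a median of -0.033; 6 fell without 72 h replicate 2. SESN1, a stress-induced inhibitor of mTOR signalling, had 179.6 and 163 CPM at 72 h, against 75.2 and 79.7 CPM at 24 h (1.15 ± 0.094). PHLDA3, an inhibitor of AKT, had 33.6 and 34.7 CPM at 72 h, against 17.8 and 17.8 CPM at 24 h (0.94 ± 0.16). AEN, an apoptotic nuclease, had 18.5 and 22.03 CPM at 72 h, against 42.1 and 40.7 CPM at 24 h (-1.03 ± 0.12). BTG2 fell as given above. In the BCL2 family, which sets the threshold for apoptosis, 3 of 16 rose and 5 fell; 1 rose without 72 h replicate 1, 24 h replicate 1 or 24 h replicate 2. BCL2, a survival gene, had 272 and 275 CPM in DMSO, 97.3 and 97.3 CPM at 24 h and 59.9 and 64.5 CPM at 72 h (log2 fold change of -0.65 ± 0.072; edgeR adjusted p = 1.17e-06). MCL1, another, had 392 and 396 CPM in DMSO, 797 and 766 CPM at 24 h and 592 and 537 CPM at 72 h (-0.47 ± 0.064). BMF, which promotes apoptosis, had 23.97 and 26.6 CPM at 72 h, against 13.7 and 9.65 CPM at 24 h (1.12 ± 0.16). PMAIP1 and BIK, which also promote it, had log2 fold changes of -0.89 ± 0.12 and -1.37 ± 0.19. BOK had a log2 fold change of 0.82 ± 0.31, and its call was lost without any 1 library (adjusted p = 0.139 to 0.190) and with DESeq2 (0.0720). BCL2 and MCL1, which protect cells, thus both fell, while the named genes that promote apoptosis moved both ways. For the whole family the share that rose, 3 of 16, was near the 16.2% of all genes. The share that fell, 5 of 16, was above the 16.5% of all genes.

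Sterol and fatty acid synthesis fell. Of 22 tested genes of cholesterol synthesis and its regulators, 18 fell, with a median log2 fold change of -0.68. INSIG1, which retains the sterol sensor in the endoplasmic reticulum (chr7:155297776-155310235, plus strand), had 109 and 114 CPM in DMSO, 53.05 and 57.1 CPM at 24 h and 18.4 and 19.4 CPM at 72 h (log2 fold change of -1.55 ± 0.079; edgeR adjusted p = 7.34e-11). DHCR7, the last enzyme of the pathway, had 41.1 and 41.4 CPM in DMSO, 44.7 and 44.2 CPM at 24 h and 17.3 and 21.04 CPM at 72 h (-1.22 ± 0.087). MVK, mevalonate kinase, which overlaps MMAB, had 16.2 and 18.04 CPM in DMSO, 16.8 and 18.9 CPM at 24 h and 8.29 and 8.35 CPM at 72 h (-1.10 ± 0.13). INSIG1 was lower in each step, while DHCR7 and MVK at 24 h were near their DMSO levels. STARD4, a carrier of cholesterol between membranes, had 22.3 and 17.6 CPM at 72 h, against 43.02 and 42.9 CPM at 24 h (-1.10 ± 0.13). Summed over the list, the level was 2325 and 2371 CPM in DMSO, 1749 and 1742 CPM at 24 h and 1128 and 1099.5 CPM at 72 h. In fatty acid synthesis 7 of 12 fell, with a median of -0.75. SREBF1, which encodes the factor SREBP-1 that drives these genes and which overlaps RAI1, had 73.01 and 81.6 CPM in DMSO, 93.7 and 101 CPM at 24 h and 36.1 and 35.8 CPM at 72 h (-1.43 ± 0.097). FASN, the fatty acid synthase, had 754 and 773 CPM in DMSO, 379 and 421 CPM at 24 h and 223 and 228 CPM at 72 h (-0.83 ± 0.074). FADS2 and FADS1, desaturases whose exons overlap each other, had log2 fold changes of -2.12 ± 0.13 and -1.28 ± 0.10. In glycolysis 14 of 24 fell, with a median of -0.40. SLC2A1, the glucose carrier, had 60.7 and 67.7 CPM at 72 h, against 167 and 174 CPM at 24 h (-1.41 ± 0.092). HK1, hexokinase, had 18.3 and 18.96 CPM at 72 h, against 37.8 and 37.2 CPM at 24 h (-1.01 ± 0.092). PFKP, a phosphofructokinase, and ALDOC, an aldolase, had log2 fold changes of -0.94 ± 0.088 and -1.24 ± 0.24.

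Sterol genes are driven by SREBP-2 together with NF-Y. Of 17 promoters of the cholesterol list in the table, 14 held CCAAT on either strand (82.4%, against 35.7% of all and 35.8% of those of tested genes). The motif is not particular to this list: 79.2% of mitosis and 56.7% of replication promoters held it. MVK is shown because it fell and holds 4 matches, in capitals, in the 200 bases before its start (chr12:109573594-109573793 on the plus strand).
MVK: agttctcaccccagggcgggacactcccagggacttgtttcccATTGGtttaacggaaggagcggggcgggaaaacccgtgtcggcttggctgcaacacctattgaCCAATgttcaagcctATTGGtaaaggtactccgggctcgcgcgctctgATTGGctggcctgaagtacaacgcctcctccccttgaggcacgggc

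**Figure D3:**
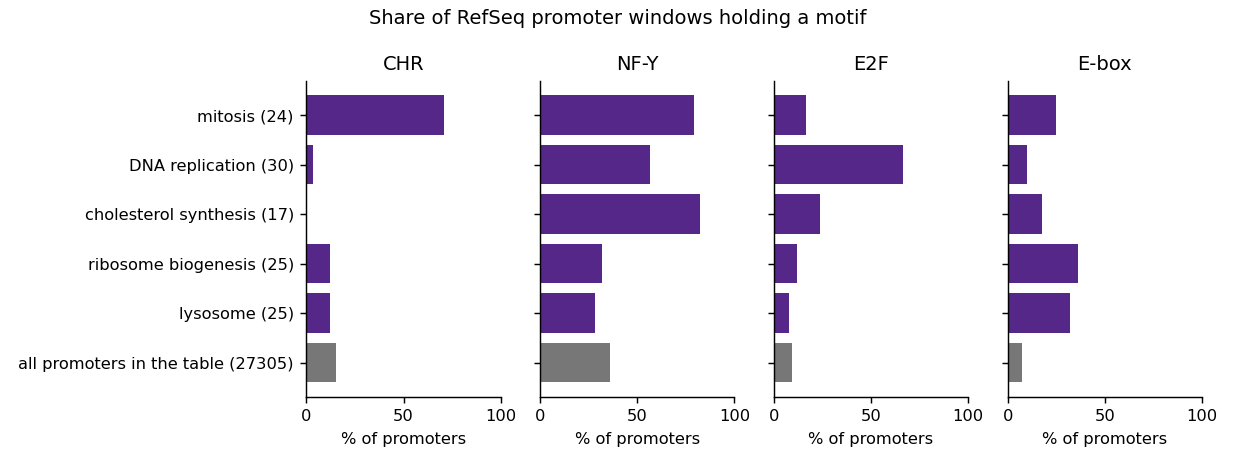
Share of RefSeq promoter windows (x axis, percent) that hold each motif, for 5 gene lists (purple bars, number of promoters found in parentheses) and for all 27305 promoters (grey bars). CHR stands out in mitosis (70.8%) and E2F in DNA replication (66.7%). NF-Y is frequent in cholesterol synthesis (82.4%), in mitosis (79.2%) and, less so, in DNA replication (56.7%).

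Genes of the ribosome, proteasome and mitochondria fell in part, with medians between -0.35 and -0.21. Of 35 cytosolic ribosomal protein genes 14 fell (median -0.31), a count that was 7 without 72 h replicate 1 or 24 h replicate 1, 9 without 72 h replicate 2, and 26 to 29 with no filter on low counts, in 18 libraries or in the 4 alone. RPLP0 had 1158 and 1208 CPM at 72 h, against 1839 and 1751 CPM at 24 h (-0.60 ± 0.11). RPS12 had 396 and 404 CPM at 72 h, against 649 and 588 CPM at 24 h (-0.63 ± 0.13). Of 30 genes of ribosome biogenesis 11 fell (median -0.21), and 17 and 19 fell in the fits of the 4 libraries and of 18. NCL, nucleolin, had 1724 and 1744 CPM in DMSO, 891 and 839.5 CPM at 24 h and 609 and 615 CPM at 72 h (-0.50 ± 0.070). DDX21, a nucleolar helicase, had 214 and 212 CPM in DMSO, 95.6 and 89.3 CPM at 24 h and 60.96 and 54.6 CPM at 72 h (-0.68 ± 0.096). Both genes were lower at 24 h than in DMSO and lower again at 72 h. Of 29 subunits of the proteasome 19 fell (median -0.35), among them PSMC3 with a log2 fold change of -0.69 ± 0.13 and PSMD2 with -0.58 ± 0.071. Of 30 nuclear genes of the respiratory chain 18 fell (median -0.33), and 11 without 72 h replicate 1 or 24 h replicate 1; NDUFA9, of complex I, had -0.65 ± 0.12 and COX5A, of complex IV, -0.62 ± 0.14. Of 30 mitochondrial ribosomal proteins 14 fell (median -0.24), and 9 without 24 h replicate 1; MRPL11 had -0.77 ± 0.15. Of 20 aminoacyl-tRNA synthetases 10 fell (median -0.34), with YARS at -0.76 ± 0.080 and GARS at -0.52 ± 0.065. Set against 16.5% of all genes that fell, the share was above it in each of these 6 lists.

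**Figure D4:**
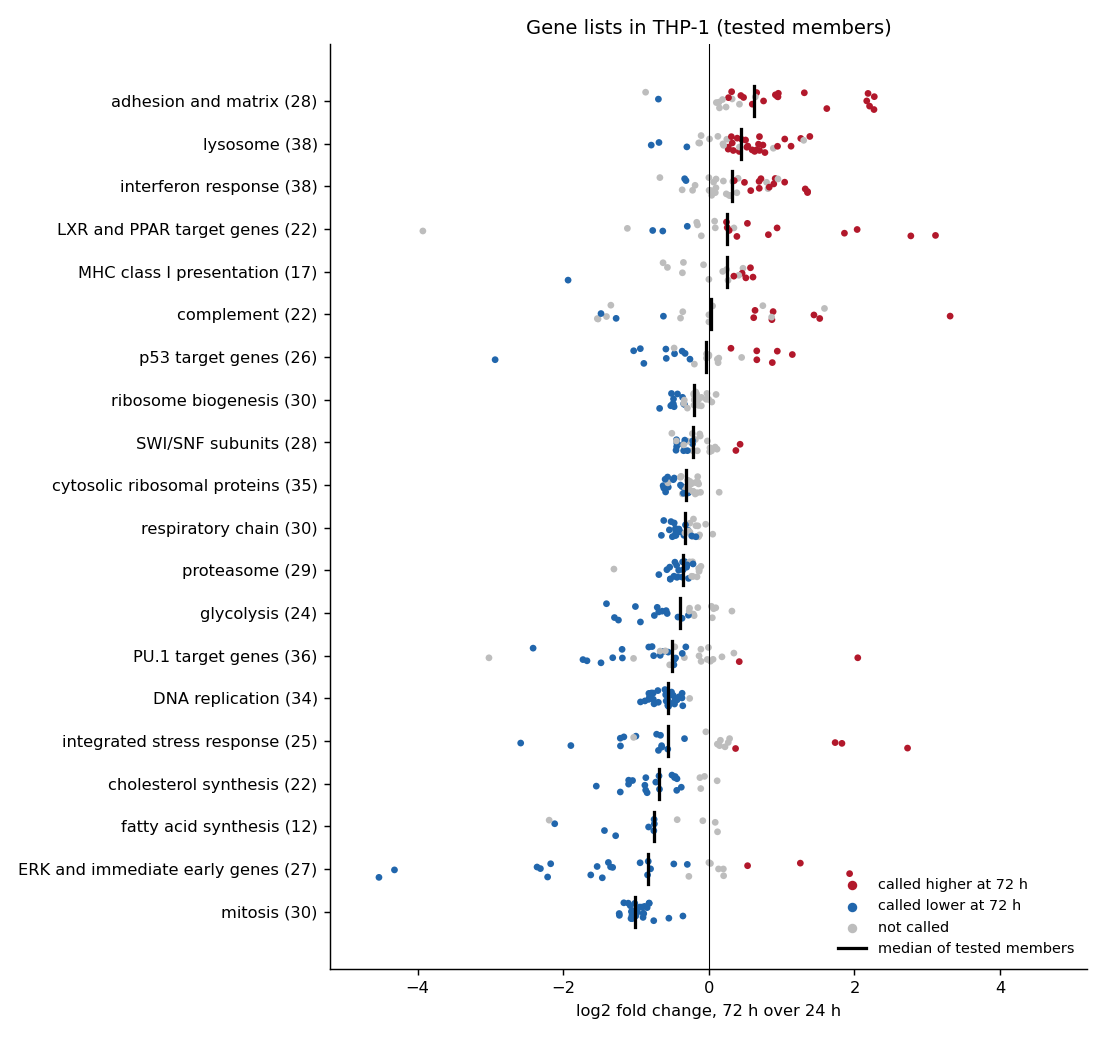
Log2 fold change of 72 h over 24 h (x axis) of each tested member of 20 gene lists (rows, number tested in parentheses), with the median as a black bar; red members rose, blue members fell and grey members were not called. All 30 mitosis genes lie below 0, while most adhesion and matrix genes and most lysosomal genes lie above it.

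The integrated stress response, in which blocked translation raises the factors ATF4 and DDIT3 (CHOP), fell in part: 13 of 25 fell, against 16.5% of all genes, and 4 rose, a share near the 16.2% of all genes, with a median of -0.57. DDIT3, which overlaps MARS, had 27.7 and 26.4 CPM in DMSO, 81.03 and 84.5 CPM at 24 h and 21.04 and 23.5 CPM at 72 h (log2 fold change of -1.90 ± 0.098; edgeR adjusted p = 7.34e-11). ATF3 had 3.44 and 3.398 CPM in DMSO, 19.3 and 18.1 CPM at 24 h and 4.25 and 1.91 CPM at 72 h (-2.59 ± 0.29, and -3.28 without 72 h replicate 1). Both peaked at 24 h and at 72 h were near DMSO. NUPR1, a stress-induced chromatin protein, had 3.32 and 4.098 CPM in DMSO, 1.07 and 1.12 CPM at 24 h and 6.66 and 8.0002 CPM at 72 h (2.73 ± 0.33). DDIT4, an inhibitor of mTOR, had 15.1 and 18.7 CPM at 72 h, against 5.47 and 4.67 CPM at 24 h (1.73 ± 0.16). Of 26 genes of the unfolded protein and heat shock responses 7 rose and 6 fell; 4 rose without 72 h replicate 1, 2 fell without 72 h replicate 2 and 3 without 24 h replicate 1. HSP90AA1, a chaperone, had 790.5 and 743 CPM at 72 h, against 1108 and 1067 CPM at 24 h (-0.50 ± 0.082). ERN1, a sensor of unfolded proteins, had 40.3 and 36.9 CPM at 72 h, against 27.3 and 24.8 CPM at 24 h (0.57 ± 0.12). Among targets of NRF2, the factor of the oxidative stress response, 8 of 21 fell and 1, ABCC3, rose; 5 fell without 24 h replicate 1. SLC7A11, the cystine carrier, had 16.7 and 20.6 CPM in DMSO, 59.4 and 62.9 CPM at 24 h and 25.4 and 27.3 CPM at 72 h (-1.21 ± 0.19). HMOX1, heme oxygenase, had 1.88 and 1.25 CPM in DMSO, 31.1 and 28.04 CPM at 24 h and 22.2 and 27.3 CPM at 72 h and did not pass the test (-0.26 ± 0.17; edgeR adjusted p = 0.264).

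SPI1 and many PU.1 target genes fell. SPI1 (chr11:47354860-47378576, minus strand) had 299 and 315 CPM in DMSO, 88.4 and 85.1 CPM at 24 h and 52.3 and 49.7 CPM at 72 h (log2 fold change of -0.77 ± 0.12; edgeR adjusted p = 6.53e-05), and 18 of 36 PU.1 target genes fell while 2 rose, with a median log2 fold change of -0.51. CSF2RB, the shared chain of receptors for GM-CSF and interleukins, had 35.3 and 35.6 CPM in DMSO, 15.1 and 18.9 CPM at 24 h and 4.77 and 5.51 CPM at 72 h (-1.73 ± 0.16). FCGR1A, the high-affinity receptor for IgG, which overlaps HIST2H2BF, had 104 and 105 CPM in DMSO, 48.4 and 48.1 CPM at 24 h and 15.1 and 15.1 CPM at 72 h (-1.67 ± 0.11). Both were lower at 24 h than in DMSO, and lower again at 72 h. LYZ, lysozyme, had 1933 and 1772 CPM in DMSO, 231 and 214 CPM at 24 h and 87.2 and 91.1 CPM at 72 h (-1.32 ± 0.070). CSF1R, the receptor for macrophage colony-stimulating factor, had 100.1 and 91.9 CPM in DMSO, 2.51 and 3.32 CPM at 24 h and 1.63 and 1.68 CPM at 72 h (-0.83 ± 0.25), and its call was lost without 72 h replicate 1 (adjusted p = 0.0812), 72 h replicate 2 (0.0575) or 24 h replicate 2 (0.166). CD14, the co-receptor for lipopolysaccharide, was 1 of the 2 that rose, with 1.63 and 1.699 CPM in DMSO, 12.2 and 14.99 CPM at 24 h and 53.2 and 59.2 CPM at 72 h (log2 fold change of 2.05 ± 0.15; edgeR adjusted p = 5.69e-09). Of 38 markers of monocytes and macrophages 11 fell and 4 rose (median -0.32), the rises being a smaller share than the 16.2% of all genes. The NADPH oxidase, which PU.1 also serves, had 4 of 7 genes lower, and 2 without 72 h replicate 1 or 24 h replicate 1; RAC2 had 196 and 192 CPM at 72 h, against 364 and 349 CPM at 24 h (-0.88 ± 0.077). Of 13 MHC class II genes 7 were tested and 5 fell, among them CD74, the invariant chain, with 134 and 140.5 CPM in DMSO, 92.3 and 93.6 CPM at 24 h and 23.6 and 26.6 CPM at 72 h (-1.89 ± 0.099). HLA-DRB1, which has near-identical relatives, with 72.3 and 76.2 CPM at 72 h, against 123 and 114 CPM at 24 h (-0.67 ± 0.12). Of 20 tested granule genes 3 rose and 3 fell, near the shares of all genes (16.2% rose and 16.5% fell), and up to 5 rose and 6 fell in other settings. CTSG, of the azurophil granules, had 634 and 608 CPM at 72 h, against 1098 and 1034 CPM at 24 h (-0.78 ± 0.18). RNASE2, of eosinophils, had 572 and 475 CPM at 72 h, against 344 and 331 CPM at 24 h (0.63 ± 0.092). Of 27 tested inflammatory genes 7 fell and 3 rose, a count of rises that was 1 without 24 h replicate 1 and up to 6 in other settings; CXCL8, a neutrophil attractant, had 6.35 and 3.59 CPM at 72 h, against 18.6 and 18.7 CPM at 24 h (-1.90 ± 0.31). IL1RN, which blocks interleukin 1, had 20.7 and 19.9 CPM at 72 h, against 35.6 and 38.4 CPM at 24 h (-0.86 ± 0.14). Among the inflammatory genes the share that rose was under the 16.2% of all genes, and the share that fell was above the 16.5%.

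Other transcription factors of blood moved both ways, 10 of 28 up and 10 down; 6 rose without 72 h replicate 2 and 5 without 24 h replicate 1 or 24 h replicate 2. The share of 10 of 28 was above the 16.2% of all genes that rose and the 16.5% that fell. KLF2, of quiescent leukocytes, had 5.57 and 3.95 CPM in DMSO, 45.9 and 40.3 CPM at 24 h and 90.1 and 74.5 CPM at 72 h (0.94 ± 0.13). KLF6 had 24.2 and 29.2 CPM at 72 h, against 60.7 and 51.8 CPM at 24 h (-1.08 ± 0.12). IRF8, a partner of PU.1, had 817 and 816 CPM in DMSO, 161 and 163 CPM at 24 h and 202 and 195 CPM at 72 h (0.30 ± 0.086), with adjusted p of 0.0766, 0.0695 and 0.0526 without 72 h replicate 1, 24 h replicate 1 and 24 h replicate 2. CEBPA, of granulocytes and monocytes, had 529 and 577 CPM at 72 h, against 456 and 443 CPM at 24 h (0.30 ± 0.10), with adjusted p of 0.205, 0.0961 and 0.142 without 72 h replicate 2, 24 h replicate 1 and 24 h replicate 2. CEBPA and IRF8 were higher at 72 h by small factors; IRF8 was under its DMSO level at both times, and KLF2 above it. MYB, a factor of immature blood cells, had 664 and 682 CPM in DMSO, 453 and 453 CPM at 24 h and 383 and 363 CPM at 72 h (-0.28 ± 0.070), with an adjusted p of 0.0514 without 72 h replicate 2. MYC had 262 and 284 CPM in DMSO, 19.3 and 17.2 CPM at 24 h and 18.3 and 17.5 CPM at 72 h and did not pass the test (-0.029 ± 0.095; edgeR adjusted p = 0.856), and its sign turned with library size alone as the scale (0.0093) and without 24 h replicate 1 (0.052). In the MYC network 7 of 14 fell and 2 rose; 4 fell without 72 h replicate 2, and 1 rose without 72 h replicate 2 or 24 h replicate 2. In this network the share that fell was above the 16.5% of all genes, and the share that rose was near the 16.2%. MXD1, a repressor that competes with MYC, had 18.6 and 18.2 CPM at 72 h, against 38.4 and 41.4 CPM at 24 h (-1.12 ± 0.14). MYCL, its relative, had 193 and 208 CPM at 72 h, against 137 and 138 CPM at 24 h (0.54 ± 0.083). HOXA9, a gene that KMT2A fusions keep on, had 14.4 and 15.5 CPM at 72 h, against 18.2 and 18.4 CPM at 24 h and did not pass the test (-0.29 ± 0.18; edgeR adjusted p = 0.244). Of 22 genes of the KMT2A fusion program 6 rose and 2 fell, with SENP6 at 0.70 ± 0.12 and RUNX2 at 0.64 ± 0.10 on the log2 scale. The share that rose was above the 16.2% of all genes, and the share that fell was under the 16.5%.

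Among 28 genes of SWI/SNF subunits 10 fell and 2 rose, with a median of -0.22. SMARCA4 had -0.22 ± 0.067; the call was lost without 72 h replicate 1 (adjusted p = 0.163) or 24 h replicate 2 (0.108). SMARCA2 had -0.02 ± 0.059 (edgeR adjusted p = 0.839), with a sign that turned under DESeq2 (0.0038), its size factors in edgeR (0.0039) and library size alone (0.019). SMARCC1, a core scaffold subunit, had 125 and 125 CPM at 72 h, against 165 and 174 CPM at 24 h (-0.44 ± 0.067). BCL7A, an accessory subunit, had 41.6 and 38.3 CPM at 72 h, against 54.8 and 54.5 CPM at 24 h (-0.45 ± 0.076). Of 12 tested histone genes 4 rose and 6 fell: HIST1H2BK had 69.98 and 63.2 CPM at 72 h, against 27.5 and 27.6 CPM at 24 h (1.27 ± 0.083), while H2AFZ, the variant H2A.Z, had 215 and 217 CPM at 72 h, against 402 and 372 CPM at 24 h (-0.84 ± 0.080).

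Among the genes that drew the most reads, CHI3L1, a chitinase-like protein that macrophages secrete (chr1:203178931-203186749, minus strand), changed the most. It had 2063 and 2085 CPM in DMSO, 1184 and 1195 CPM at 24 h and 6255 and 6325 CPM at 72 h (log2 fold change of 2.40 ± 0.077; edgeR adjusted p = 3.98e-14), so that it was lower at 24 h than in DMSO and highest at 72 h. SRGN, the proteoglycan core of granules, had 5841 and 5640.1 CPM at 72 h, against 3751 and 3794 CPM at 24 h (0.61 ± 0.072). APLP2, a relative of the amyloid precursor, had 5263 and 5132 CPM at 72 h, against 3251 and 3234 CPM at 24 h (0.68 ± 0.055), P4HB, a protein disulfide isomerase that also serves collagen assembly, had 3763 and 3785 CPM at 72 h, against 2409 and 2295 CPM at 24 h (0.68 ± 0.076). MYH9, a non-muscle myosin, had 4445 and 4755 CPM at 72 h, against 3623 and 3694 CPM at 24 h (0.33 ± 0.059). Apart from CHI3L1, these genes rose by less than 2-fold. On the falling side YBX1, an RNA-binding protein of growing cells, had 3742 and 3832 CPM at 72 h, against 5976 and 5861 CPM at 24 h (-0.64 ± 0.083). ACTB, beta-actin, had 4911 and 4942 CPM at 72 h, against 6743 and 6670.3 CPM at 24 h (-0.45 ± 0.074). FTL fell as given above, CAP1, which regulates actin turnover, had a log2 fold change of -0.21 ± 0.054, and RNR2, listed under the symbol of the mitochondrial large ribosomal RNA, of -0.29 ± 0.093. The calls of CAP1 and RNR2 were lost without 72 h replicate 2 (adjusted p = 0.0551 and 0.147) or 24 h replicate 1 (0.0584 and 0.165).

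The change between 24 h and 72 h was also set against that in the other lines, as the THP-1 log2 fold change minus the mean of those in MOLM-13 and MV-4-11, within 1 fit. It differed for 4073 genes (24.3% of those tested), higher in THP-1 for 1996 (11.9%) and lower for 2077 (12.4%). For mitosis genes the medians were -1.01 in THP-1, -0.83 in MOLM-13 and -1.11 in MV-4-11, and 5 of 30 genes passed the test of the difference (3 higher, 2 lower). DNA replication fell less in THP-1, with medians of -0.56 in THP-1, -1.47 in MOLM-13 and -0.96 in MV-4-11, and 29 of 34 genes passed the test of the difference, all higher in THP-1. In ribosome biogenesis 24 of 30 differed, all higher in THP-1 (medians -0.21, -0.90 in MOLM-13 and -0.75 in MV-4-11). For immediate early genes the difference was lower in THP-1 for 17 of 27 and higher for 3; in MV-4-11 alone 13 of them rose and 3 fell, and in MOLM-13 8 rose and 9 fell (medians -0.84, -0.28 in MOLM-13 and 0.44 in MV-4-11). Cholesterol synthesis differed in 18 of 22 genes, all lower in THP-1 (medians -0.68, -0.40 in MOLM-13 and 0.89 in MV-4-11). The other lines moved in opposite directions: in MOLM-13 14 of these genes fell and 2 rose, and in MV-4-11 20 rose and 0 fell. The fall was thus shared with MOLM-13. The lysosomal rise was smaller in THP-1, with 23 of 38 genes lower for the difference and 1 higher (medians 0.44, 1.10 in MOLM-13 and 1.10 in MV-4-11). Of 36 PU.1 target genes 20 were lower in THP-1 and 3 higher (medians -0.51, 0.53 in MOLM-13 and 0.44 in MV-4-11).

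**Figure D5:**
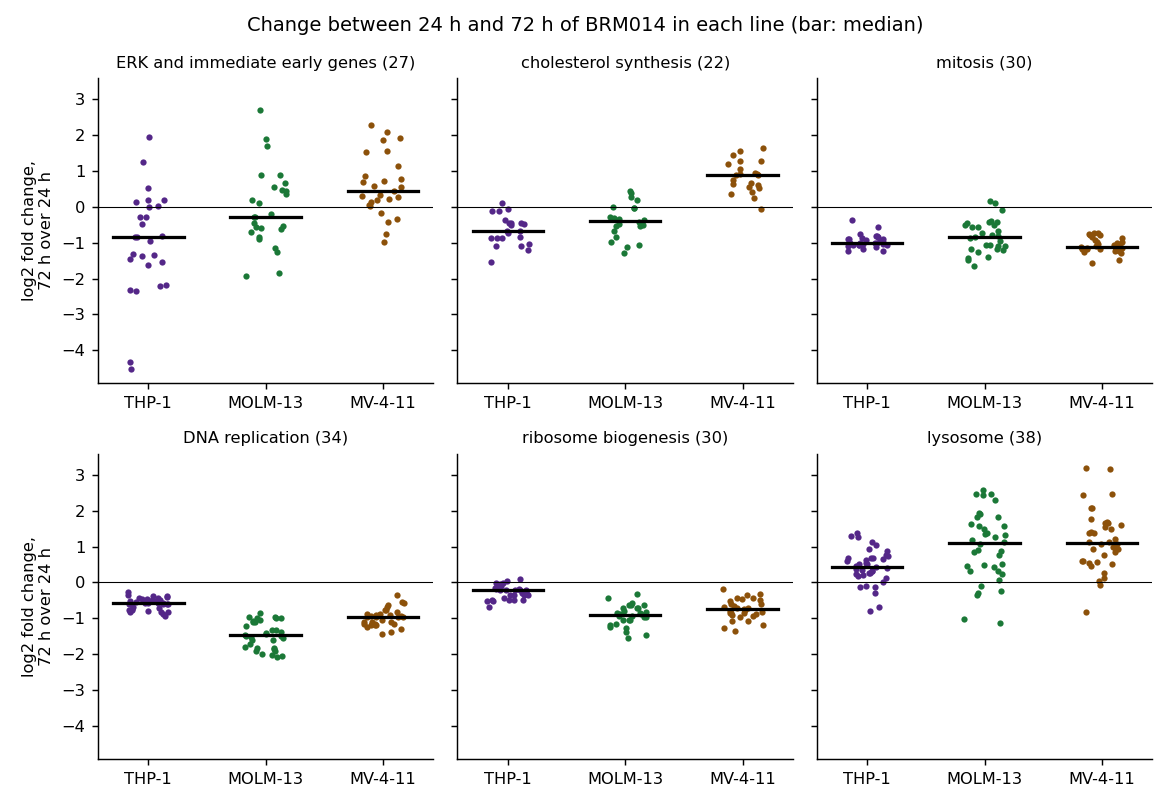
Log2 fold change of 72 h over 24 h of BRM014 (y axis) of the members of 6 gene lists (points) in THP-1, MOLM-13 and MV-4-11, with the median as a bar. The medians of mitosis genes were -1.01, -0.83 and -1.11, while those of DNA replication were -0.56, -1.47 and -0.96, and those of lysosomal genes 0.44, 1.10 and 1.10.

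Single genes differed too. For PTGDS, a prostaglandin D synthase, THP-1 had 29.01 and 28.9 CPM at 72 h, against 9.21 and 9.56 CPM at 24 h. For the same gene MOLM-13 had 237 and 233 CPM at 72 h, against 2.29 and 3.41 CPM at 24 h, and MV-4-11 had 103 and 104 CPM at 72 h, against 0.524 and 0.319 CPM at 24 h. The rise in THP-1 was from a higher 24 h level and smaller (difference -5.53 ± 0.26). CHI3L1 rose by 2.40 in THP-1, 5.01 in MOLM-13 and 9.61 in MV-4-11 on the log2 scale (difference -4.90 ± 0.13). C3 by 3.31, 5.09 and 4.99 (difference -1.73 ± 0.12). On the log2 scale both genes had the smallest rise in THP-1, which had the highest CPM of the lines at both times. At 24 h CHI3L1 had 23.1 and 24.7 CPM in MOLM-13 and 0.157 and 0.228 CPM in MV-4-11, so the MV-4-11 change started near the floor. C3 at 24 h had 11.4 and 13.3 CPM in MOLM-13, 17.5 and 18.8 CPM in MV-4-11 and 124 and 128 CPM in THP-1. MYC had log2 fold changes of -0.029 in THP-1, -2.97 in MOLM-13 and -1.77 in MV-4-11 (difference 2.34 ± 0.12). BCL2 of -0.65, -2.91 and -2.22 (difference 1.92 ± 0.090). SPI1 had -0.77 in THP-1, 0.47 in MOLM-13 and 1.11 in MV-4-11 (difference -1.55 ± 0.15). MMP2, which rose in THP-1, had -1.62 in MOLM-13 and -0.72 in MV-4-11 (difference 3.36 ± 0.32). Its levels in those lines were low. MOLM-13 had 0.24 and 0.26 CPM at 72 h, against 0.45 and 1.11 CPM at 24 h. MV-4-11 had 2.15 and 3.04 CPM at 72 h, against 3.57 and 4.97 CPM at 24 h. EPHB3, also among the largest rises in THP-1, had -2.44 in MOLM-13 and -0.88 in MV-4-11 (difference 4.85 ± 0.30). It too was low there: MOLM-13 had 0.87 and 0.52 CPM at 72 h, against 3.69 and 3.96 CPM at 24 h. MV-4-11 had 1.19 and 1.57 CPM at 72 h, against 2.83 and 2.28 CPM at 24 h. KDR had no read in any BRM014 library of MOLM-13 or MV-4-11.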

How the data were processed

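The files deposited by the authors give raw counts of reads for each gene symbol, with a file for each library. HTSeq, hg38, DESeq2 and HISAT2 2.1.0 are named, per the submitters' processing notes, without their roles; the annotation and the strand setting of counting are not given in the sources used here. Per the labels' protocols, poly(A) RNA was captured and amplified by PCR. Genes that overlap another on either strand, such as VCL, CDKN1A, STARD4 and SLC2A1 besides those marked in the text, or that have near-identical copies, are therefore uncertain. The 5 summary lines of each file were left out (no-feature share 18.4% to 19.2% in the 4 libraries).

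All 22 libraries in 11 groups entered 1 fit in edgeR 4.0.16 (R 4.3.3): filterByExpr with a minimum count of 10, TMM scaling, and the quasi-likelihood test with Benjamini-Hochberg adjustment over 16794 genes. "Rose" and "fell" mean an adjusted p under 0.05, and a fold change is log2 of 72 h over 24 h ± standard error (n = 2 each). CPM are on TMM-scaled library sizes. Counts were simulated from the group means and library sizes, with the same spread for every gene and a small share of genes changed. There the fit recovered 100 of 100 genes changed 3-fold and 41 of 100 changed 1.5-fold, with 3 false calls among 16357 unchanged genes. In the real counts the spread differed between genes and a larger share was called, so these rates need not hold for them. A gene with no read in a library may have up to 3 there (95% limit), counting error only.

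The members and the 43 gene lists were chosen with earlier results of these data known. Named were the 12 largest changes each way (at least 5 CPM, no overlap between groups), up to 4 called members of each list, 18 genes of interest to the study, the 5 largest differences each way between THP-1 and the other lines, and the 5 called genes each way with the most reads. Replicate numbers pair only 2 samples a group, and the differences between replicates did not correlate between the times (r = -0.00055 across genes), so they were not used as a block. Alternatives were other scalings, filters, sets of libraries, DESeq2 1.42.0, a replicate block and leaving out each library. Positions are from GENCODE v29 on GRCh38, and promoters from RefSeq on GRCh38.p14.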

Additional observations from a re-analysis of the deposited data

Results flagged for a closer look

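The change from 24 h to 72 h of BRM014 differed between THP-1 and the mean of MOLM-13 and MV-4-11 for the genes given here (edgeR test of the difference, adjusted p under 0.05). Each difference is on the log2 scale, positive where the THP-1 change was the higher, and is followed by the changes in THP-1, MOLM-13 and MV-4-11. No explanation was tested.

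BCL2 differed by 1.92, from changes of -0.65, -2.91 and -2.22 (adjusted p = 9.87e-12). C3 differed by -1.73, from changes of 3.31, 5.09 and 4.99 (adjusted p = 1.21e-09). CDKN1A differed by 0.70, from changes of 0.66, -0.68 and 0.60 (adjusted p = 1.70e-05). CHST2 differed by 4.65, from changes of 3.63, -3.04 and 0.99 (adjusted p = 2.58e-09). DDAH2 differed by -6.67, from changes of -5.33, 2.33 and 0.34 (adjusted p = 0.00761). DNAJA3 differed by 4.72, from changes of 4.02, -0.82 and -0.59 (adjusted p = 0.0192). EGR2 differed by -5.33, from changes of -4.32, 0.47 and 1.55 (adjusted p = 3.11e-06). EPHB3 differed by 4.85, from changes of 3.20, -2.44 and -0.88 (adjusted p = 4.00e-10). HMOX1 differed by -2.14, from changes of -0.26, 1.60 and 2.18 (adjusted p = 2.05e-07). HRAS differed by -5.25, from changes of -3.93, 2.41 and 0.22 (adjusted p = 0.0145). IRF8 differed by 1.75, from changes of 0.30, -0.81 and -2.09 (adjusted p = 1.07e-09). KCNH2 differed by 4.53, from changes of -0.26, -5.08 and -4.51 (adjusted p = 0.00810), with a group at 0 reads in another line, so that the size depends on the prior count of the fit.

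KLF2 differed by 0.89, from changes of 0.94, -0.20 and 0.29 (adjusted p = 2.69e-04). LCNL1 differed by -5.26, from changes of 2.56, 4.83 and 10.81 (adjusted p = 3.06e-05), with a group at 0 reads in another line, so that the size depends on the prior count of the fit. MCL1 differed by -0.53, from changes of -0.47, -0.28 and 0.39 (adjusted p = 4.20e-05). MYB differed by 0.28, from changes of -0.28, -0.53 and -0.59 (adjusted p = 0.0198). MYC differed by 2.34, from changes of -0.029, -2.97 and -1.77 (adjusted p = 1.36e-11). PPARG differed by -0.92, from changes of 0.24, 0.74 and 1.58 (adjusted p = 1.84e-06). PTGDS differed by -5.53, from changes of 1.62, 6.36 and 7.94 (adjusted p = 9.94e-12). SMARCA2 differed by 0.25, from changes of -0.02, -0.12 and -0.43 (adjusted p = 0.0140). SMARCA4 differed by 0.33, from changes of -0.22, -0.62 and -0.49 (adjusted p = 0.00489). SPI1 differed by -1.55, from changes of -0.77, 0.47 and 1.11 (adjusted p = 1.34e-07). ZKSCAN7 differed by 4.72, from changes of 0.72, -2.51 and -5.49 (adjusted p = 0.0184), with a group at 0 reads in another line, so that the size depends on the prior count of the fit.

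DDAH2 and HRAS rest on 24 h replicate 1, as given in the report, and DNAJA3 lost its call without any 1 of 3 libraries. Reads outside annotated genes, not used in any comparison, made up 19.2% and 18.8% of the THP-1 libraries at 72 h, and 18.4% and 18.9% at 24 h, above the 16.5% and 15.8% of the DMSO libraries.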

How the results depend on the processing

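The genes that rose numbered 1734 to 1960 and those that fell 1946 to 2049 when 1 of the 4 libraries was left out, a lone library being assumed to vary like the other groups; the low of 1734 was without 24 h replicate 1. In the other settings 2024 to 3207 rose and 2192 to 3452 fell, the fewest with the 10 THP-1 libraries, and higher calls were 47.5% to 55.2% of calls. The largest shift of the median over all genes was to 0.047, with library size alone. Pairing the replicates by number (a replicate block) gave 2518 higher and 2592 lower in 22 libraries, and 3006 and 3177 in 4. MYC and SMARCA2, which passed no test, changed sign: MYC to 0.0093 with library size alone and to 0.052 without 24 h replicate 1 (-0.114 to 0.052 without single libraries), and SMARCA2 to 0.0038 with DESeq2's Wald test, 0.0039 with its size factors in edgeR and 0.019 with library size alone; the cause was not tested. Of 207 named genes, 36 lost their call in at least 1 setting; in the fit of the 10 THP-1 libraries these included BFAR, BOK, CEBPA, DNAJA3, PPARG, RNR2 and SMARCA4. With 2 libraries a group, 41 of 100 simulated 1.5-fold changes were found, so small changes can be missed. That simulation gave every gene the same spread, so its rate need not hold for the real counts.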
